A study of Mus musculus with 18 samples.

Results

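The genes described are 7 CC chemokine ligands, Ccl2, Ccl7, Ccl12, Ccl3, Ccl4, Ccl6 and Ccl9, and 2 chemokine receptors carried by monocytes, Ccr1 and Ccr2. They were chosen by name as the CC chemokines and monocyte receptors of the infarcted heart, with earlier results of these data known. Counts of genes called among them thus describe the list and are no independent test of it. All 9 were found in the deposited count table of 30583 genes. RNA was sequenced from left ventricular myocardium of 18 male C57BL/6JR mice, 12 weeks old, in 6 groups of 3 mice. In 5 groups the left anterior descending coronary artery was tied under sodium pentobarbital to cause a myocardial infarction, and tissue was taken 10 min or 1, 6, 24 or 72 h later. Sham mice (0 h) were operated on in the same way, with a suture placed and left untied. No sham group was taken at the later times, so ligation and time since the operation cannot be told apart. By its title, the study followed gene expression as an infarction progresses.

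CC chemokines are small secreted proteins that bind G protein-coupled receptors on leukocytes and guide the movement of those cells along a concentration gradient. Ccl2, Ccl7 and Ccl12 are ligands of Ccr2, the receptor by which inflammatory monocytes leave the bone marrow and enter injured tissue, the heart included. Ccl3 is a ligand of Ccr1, and Ccl4 is its close relative. Ccl6 and Ccl9 are rodent chemokines made largely by myeloid cells and bind Ccr1, a receptor of monocytes and neutrophils.

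The family takes its name from adjacent cysteines near the start of the mature protein, and the coding sequence around them is shown for the 7 ligands to let the near relatives be compared. The stretches are from GENCODE M21 transcripts, each with 21 coding bases before and after the pair, and capitals mark the 2 cysteine codons.
Ccl2: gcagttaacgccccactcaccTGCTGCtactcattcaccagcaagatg
Ccl7: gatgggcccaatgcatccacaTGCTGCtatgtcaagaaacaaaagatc
Ccl12: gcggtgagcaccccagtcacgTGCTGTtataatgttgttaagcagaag
Ccl3: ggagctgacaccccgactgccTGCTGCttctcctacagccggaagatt
Ccl4: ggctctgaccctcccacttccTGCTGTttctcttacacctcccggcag
Ccl6: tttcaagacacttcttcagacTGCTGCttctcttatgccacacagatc
Ccl9: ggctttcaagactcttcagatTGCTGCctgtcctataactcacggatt
Each ligand held 1 such pair, which began at codon 34 in Ccl2, Ccl3 and Ccl4 and at codon 57 in Ccl9. Over the aligned coding sequences, as a share of the longer of the pair, Ccl3 and Ccl4 were identical at 66.7% of bases. Ccl6 and Ccl9 were identical at 65.9% and Ccl7 and Ccl12 at 64.1%. Over whole transcripts, untranslated parts included, the longest run of bases that any 2 of the 7 ligands shared exactly was 25 (Ccl6 and Ccl9).

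Levels are given as CPM, counts per M counts (M for mega), after TMM scaling, which evens out differences in RNA make-up between libraries. Libraries held 18.2 to 25.1 M counts. Genes were called at an adjusted p under 0.05 from edgeR's quasi-likelihood test, with Benjamini-Hochberg adjustment over all 16311 tested genes. Libraries of a group were not alike: replicate 3 at 24 h and replicate 2 at 72 h had the highest level of their group for all 9 genes. At 6 h replicate 1 was highest for 8 of the 9 genes and replicate 3 was lowest for 8. The labels give cardiomyocytes as the cell type, but no separation of cells is described and markers of other cell types were present, so the libraries were read as whole tissue. The summed level of 8 cardiomyocyte markers was 69782 to 75558 CPM in sham and 17886 to 23702 CPM at 72 h, and that of 6 fibroblast markers 657 to 704 and 7814 to 10092 CPM.

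All 9 genes were called higher than in sham at 6, 24 and 72 h, and none at 10 min or 1 h. A test over the 6 groups called all 9, as it did 78.4% of all genes. At 6 h 28.4% of all genes tested were called (16.3% higher), at 24 h 43.8% (23.7% higher) and at 72 h 66.4% (34.2% higher). The median log2 fold change of the 9 genes was 3.79 at 6 h, 4.69 at 24 h and 4.59 at 72 h, where the median over all genes tested was -0.01, 0.01 and 0.03. The 3 libraries of each of these groups lay above the 3 sham libraries for all 9 genes, as they did for 23.1%, 28.0% and 39.3% of all genes. All 27 calls were made in each of 18 fits that left out 1 library. At 10 min 0 genes were called by edgeR, DESeq2 or limma (0.0736% of all genes by edgeR), and 1 gene, Ccl12, had an unadjusted p under 0.05 (7.01% of all genes). In whole tissue, more cells of a type and more RNA per cell cannot be told apart.

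**Figure D1:**
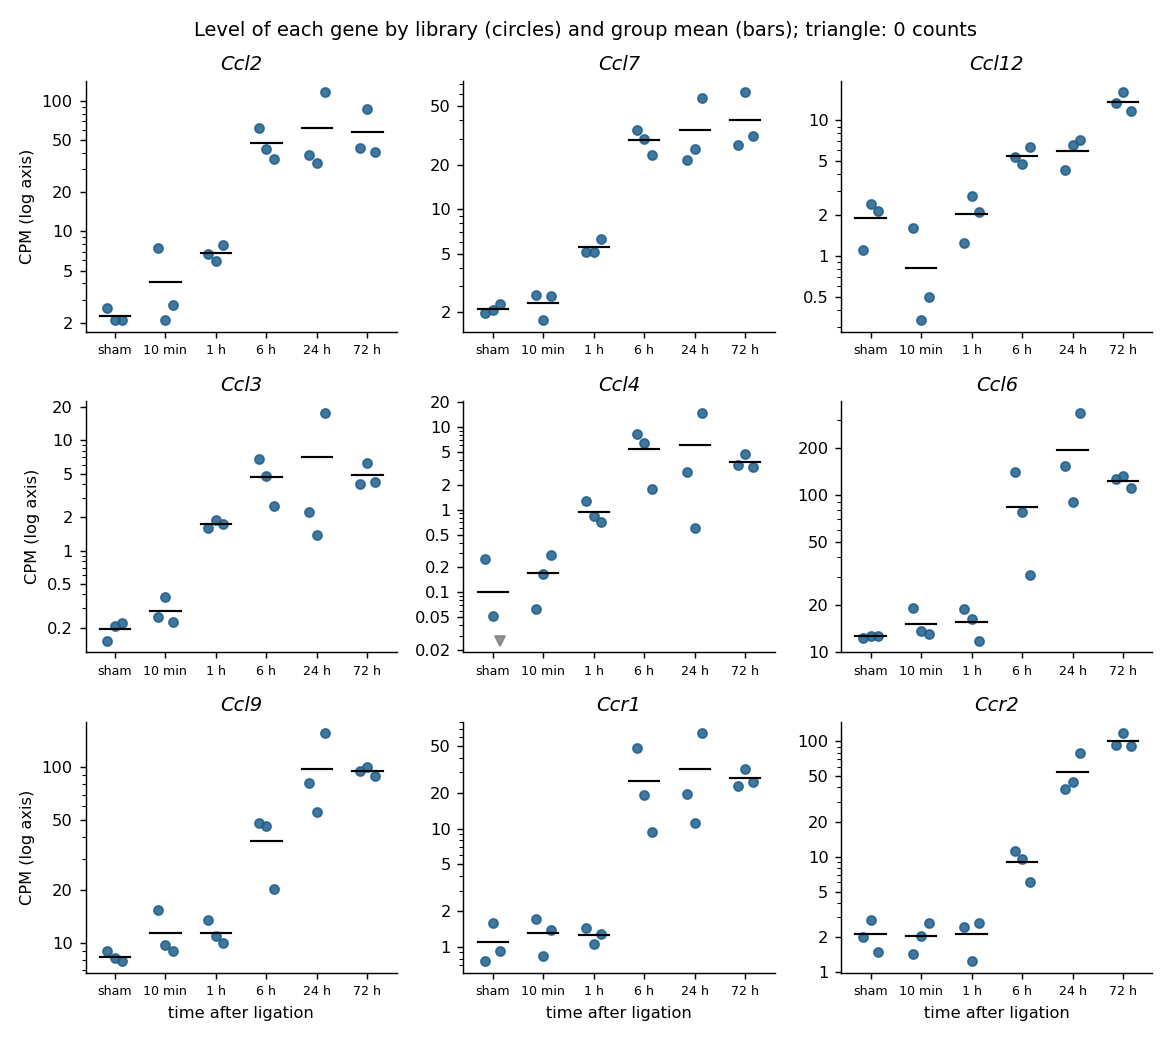
Level of the 9 genes in each of the 18 libraries (circles, CPM on a log axis that differs between panels) and the group mean (bars), by time after ligation; the triangle marks a library with 0 counts of Ccl4. Every library from 6 h on lies above every sham library in each panel, and Ccr2 has its highest group mean, 100.2 CPM, at 72 h.

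Ccl2, the main ligand of Ccr2, was at 2.58, 2.07 and 2.09 CPM in the 3 sham libraries, at 7.47, 2.1 and 2.74 at 10 min and at 6.67, 5.98 and 7.81 at 1 h. It then stood at 62.7, 43.3 and 36.1 CPM at 6 h, at 38.3, 33.3 and 116.9 at 24 h and at 44.1, 87.8 and 41.0 at 72 h. All 1 h libraries were above all sham libraries, and the libraries of the 3 late groups overlapped each other. The log2 fold change against sham was 4.40 (SE 0.61, adjusted p = 2.17e-04) at 6 h, 4.80 (SE 0.62, adjusted p = 6.30e-05) at 24 h and 4.68 (SE 0.61, adjusted p = 1.36e-05) at 72 h. Without replicate 3 the 24 h mean was 35.8 in place of 62.8 CPM, and without replicate 1 the 10 min mean was 2.42 in place of 4.10 CPM. The gene lies on chromosome 11 (82035571 to 82037453, plus strand, GRCm38) inside the span of the predicted gene Gm17268 of the opposite strand. Gm17268 was not found by symbol in the count table. Since no use of strand is stated, any reads from shared exons cannot be told apart, and the overlap of exons was not examined.

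Ccl7, its neighbour (chromosome 11, 82045712 to 82047525, plus strand), followed the same course at a slightly lower CPM. Sham libraries held 1.97, 2.07 and 2.27 CPM, 10 min libraries 2.62, 1.76 and 2.57, and 1 h libraries 5.12, 5.15 and 6.30. At 6 h the libraries held 34.5, 29.9 and 23.3 CPM, at 24 h 21.3, 25.6 and 56.4, and at 72 h 27.3, 61.5 and 31.2. The 1 h libraries stood above both earlier groups, and the 6 h libraries above those of 1 h, while the 3 late groups overlapped. Its log2 fold change against sham was 3.79 (SE 0.42, adjusted p = 2.56e-05) at 6 h and 4.24 (SE 0.42, adjusted p = 4.10e-07) at 72 h.

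Ccl12, the third Ccr2 ligand of this cluster (chromosome 11, 82101845 to 82103400, plus strand), had the smallest log2 fold change of the 3 at each late time. It was at 1.11, 2.44 and 2.13 CPM in sham, and at 1.62, 0.336 and 0.503 at 10 min, where the groups overlapped (adjusted p = 0.523). Levels were 1.26, 2.78 and 2.1 CPM at 1 h, 5.36, 4.74 and 6.39 at 6 h and 4.27, 6.58 and 7.12 at 24 h. At 72 h the libraries held 13.3, 16.0 and 11.6 CPM, above every other library of the series. The log2 fold change against sham was 1.53 (SE 0.38, adjusted p = 0.00613) at 6 h and 2.85 (SE 0.37, adjusted p = 3.10e-06) at 72 h, and from 24 to 72 h it was 1.19 (SE 0.33, adjusted p = 0.00638). Without replicate 1 the 10 min mean was 0.419 in place of 0.819 CPM.

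Ccl3 and Ccl4, chemoattractants of monocytes and lymphocytes made by activated macrophages and neutrophils, were near the limit of detection in sham. Ccl3 (chromosome 11, 83647844 to 83649355, minus strand) had 3 to 5 counts per sham library, or 0.152, 0.207 and 0.222 CPM, and 4 to 9 counts per library at 10 min. At 1 h it had 30 to 33 counts per library, or 1.59, 1.90 and 1.75 CPM. The 1 h libraries were thus close together and above every sham and 10 min library. Later libraries spread widely, with 6.79, 4.74 and 2.56 CPM at 6 h, 2.24, 1.38 and 17.8 at 24 h and 4.04, 6.21 and 4.2 at 72 h. The log2 fold change against sham was 4.55 (SE 0.99, adjusted p = 0.00368) at 6 h and 4.59 (SE 0.97, adjusted p = 7.65e-04) at 72 h. Without replicate 3 the 24 h mean was 1.81 in place of 7.14 CPM, close to that at 1 h.

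Ccl4 (chromosome 11, 83662584 to 83664683, plus strand) had 5, 1 and 0 counts in the 3 sham libraries, and the limit that a count of 0 allows, 3 counts, is 0.133 CPM in replicate 3. It was at 1.26, 0.829 and 0.700 CPM at 1 h and at 8.17, 6.32 and 1.76 CPM at 6 h. The 24 h libraries held 2.89, 0.601 and 14.8 CPM and the 72 h libraries 3.44, 4.66 and 3.28. One 24 h library lay below all those of 1 h and another above all those of 6 h. Its log2 fold change over sham was 5.71 (SE 1.27, adjusted p = 0.00451) at 6 h, 5.85 (SE 1.26, adjusted p = 0.00213) at 24 h and 5.20 (SE 1.28, adjusted p = 0.00251) at 72 h. Leaving out replicate 3 moved the 24 h mean from 6.10 to 1.75 CPM, and leaving out replicate 1 moved the sham mean from 0.102 to 0.0259 CPM.

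Ccl6 was the ligand with the highest CPM in each group. In sham its 3 libraries were close, at 12.3, 12.5 and 12.7 CPM, and at 10 min they were at 18.9, 13.5 and 12.9. At 1 h they held 18.6, 16.0 and 11.7 CPM, which overlapped sham. At 6 h they were at 141, 77.8 and 31.1 CPM, at 24 h at 153, 90.3 and 335, and at 72 h at 127, 131 and 111. The range at 24 h was thus wide and that at 72 h narrow. Against sham the log2 fold change was 2.73 (SE 0.52, adjusted p = 0.00194) at 6 h, 3.94 (SE 0.54, adjusted p = 1.11e-04) at 24 h and 3.30 (SE 0.53, adjusted p = 9.29e-05) at 72 h. The 6 h mean was 83.3 CPM with and 54.4 without replicate 1, and the 24 h mean 193 with and 121 without replicate 3. Ccl6 (chromosome 11, 83587882 to 83593087, minus strand) is overlapped by E230016K23Rik on the other strand, which had 0 to 22 counts per library.

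Ccl9, the next gene (chromosome 11, 83572919 to 83578636, minus strand), was at 8.90, 8.14 and 7.82 CPM in sham, at 15.3, 9.66 and 8.99 at 10 min and at 13.4, 10.8 and 9.91 at 1 h. It stood at 48.0, 46.0 and 20.3 CPM at 6 h, at 81.8, 56.0 and 157 at 24 h and at 95.6, 100.5 and 89.6 at 72 h. The 24 h libraries were all above those of 6 h, and the 72 h libraries fell within the range of 24 h. Its log2 fold change against sham was 2.20 (SE 0.38, adjusted p = 8.62e-04) at 6 h and 3.52 (SE 0.39, adjusted p = 1.91e-06) at 72 h. From 6 to 24 h it rose by 1.36 on the log2 scale (SE 0.35, adjusted p = 0.0105), a call that was lost without replicate 3 of 24 h (adjusted p = 0.0508) and when only those 2 groups were fitted (adjusted p = 0.139).

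Ccr1, on chromosome 9 (123962124 to 123968692, minus strand), was at 0.758, 1.61 and 0.933 CPM in sham, at 1.74, 0.840 and 1.40 at 10 min and at 1.45, 1.07 and 1.28 at 1 h. It stood at 47.7, 19.3 and 9.43 CPM at 6 h, at 19.9, 11.2 and 64.2 at 24 h and at 23.2, 32.2 and 24.6 at 72 h. The first 3 groups overlapped each other, as did the last 3, with a gap between them. Relative to sham its log2 fold change was 4.53 (SE 0.78, adjusted p = 9.49e-04) at 6 h and 4.60 (SE 0.77, adjusted p = 1.35e-04) at 72 h. Without replicate 1 the 6 h mean was 14.4 in place of 25.5 CPM, and without replicate 3 the 24 h mean was 15.6 in place of 31.8 CPM.

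Ccr2 (chromosome 9, 124101950 to 124113557, plus strand) rose step by step. Its libraries held 2.02, 2.85 and 1.51 CPM in sham, 1.43, 2.06 and 2.68 at 10 min and 2.46, 1.24 and 2.68 at 1 h, which overlapped. They then held 11.3, 9.62 and 6.07 CPM at 6 h, 38.8, 44.9 and 79.9 at 24 h and 92.3, 117.6 and 90.7 at 72 h. From 1 h on no library of one group reached the next. The log2 fold change against sham was 2.09 (SE 0.36, adjusted p = 7.29e-04) at 6 h, 4.69 (SE 0.35, adjusted p = 5.05e-07) at 24 h and 5.57 (SE 0.36, adjusted p = 4.45e-09) at 72 h. The last step, from 24 to 72 h, was 0.88 (SE 0.27, adjusted p = 0.0143), and its adjusted p was 0.0554 to 0.0752 without replicate 1 or 2 of 24 h or replicate 2 of 72 h.

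Between consecutive time points the step from 1 to 6 h had the most calls among the 9 genes. The largest log2 step lay elsewhere for Ccr2 (6 to 24 h) and Ccl3 (10 min to 1 h, 2.55, not called). The step from 10 min to 1 h gave 0 called genes by edgeR (0.307% of all genes were called), 1 by DESeq2 (0.815% of all genes) and 3 at an unadjusted p under 0.05 (7.43% of all genes). Ccl12 was called at that step without replicate 1 of 10 min (adjusted p = 0.0432), and Ccl3 without replicate 3 of 24 h (0.00539). At 1 h against sham edgeR called 0 of the 9 (0.294% of all genes, 0.288% higher) and 3, Ccl2, Ccl7 and Ccl3, had an unadjusted p under 0.05 (5.51% of all genes). Their log2 fold changes at 1 h were 1.60 (SE 0.64, adjusted p = 0.792), 1.39 (SE 0.44, adjusted p = 0.524) and 3.12 (SE 1.07, adjusted p = 0.643). In 5 of the 9 genes, Ccl2, Ccl7, Ccl3, Ccl4 and Ccl9, the 1 h libraries all lay above the sham libraries, as they did for 8.25% of all genes. Other fits gave more calls at this time. A fit of the 1 h and sham libraries alone called Ccl2 (adjusted p = 6.66e-05), Ccl7 (3.81e-04), Ccl3 (1.46e-04) and Ccl4 (0.0183), where 1.31% of its genes were called. DESeq2 called Ccl7 (adjusted p = 0.0168) and Ccl3 (0.0369), with 0.582% of all genes, and edgeR without replicate 3 of 24 h called Ccl3 (adjusted p = 0.00104).

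From 1 to 6 h 7 of the 9 genes were called, all higher (24.5% of all genes were called, 14.5% higher). Ccr1 moved most, by 4.31 on the log2 scale (SE 0.77, adjusted p = 0.00161), and Ccl12 least of the called genes, by 1.44 (SE 0.38, adjusted p = 0.0111). Ccl3 (1.42, SE 0.74, adjusted p = 0.180) and Ccl4 (2.52, SE 0.92, adjusted p = 0.0609) were not called, although all their 6 h libraries were above those of 1 h (as for 21.2% of all genes). Without replicate 1 of 1 h Ccl12 was no longer called (adjusted p = 0.0586). Ccl4 was called without replicate 3 of 6 h (adjusted p = 0.0359) or without replicate 2 (0.0128) or 3 (0.00589) of 24 h, and Ccl3 without replicate 3 of 24 h (0.00156). From 6 to 24 h only Ccr2 (2.60, SE 0.30, adjusted p = 5.11e-05) and Ccl9 were called (27.8% of all genes, 14.2% higher). From 24 to 72 h the called genes were Ccr2 and Ccl12 (50.5% of all genes, 24.4% higher), and from 6 to 72 h Ccr2, Ccl12 and Ccl9 (63.0%, 31.3% higher). These counts of 2, 2 and 3 of 9 genes differ by less than 1 gene from what the shares called higher would give. For Ccl3 the direction after 6 h rested on 1 library: without replicate 3 of 24 h it fell by 1.38 on the log2 scale from 6 to 24 h (adjusted p = 0.00607) and rose by 1.41 from 24 to 72 h (adjusted p = 0.00128), where all libraries gave 0.58 and -0.54, neither called. Without that library Ccl7 was also called from 24 to 72 h (0.76, adjusted p = 0.0304). Ccl6, not called from 6 to 24 h with all libraries, was called there without replicate 1 of 6 h (adjusted p = 0.0179) or replicate 2 of 24 h (0.0290).

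**Figure D2:**
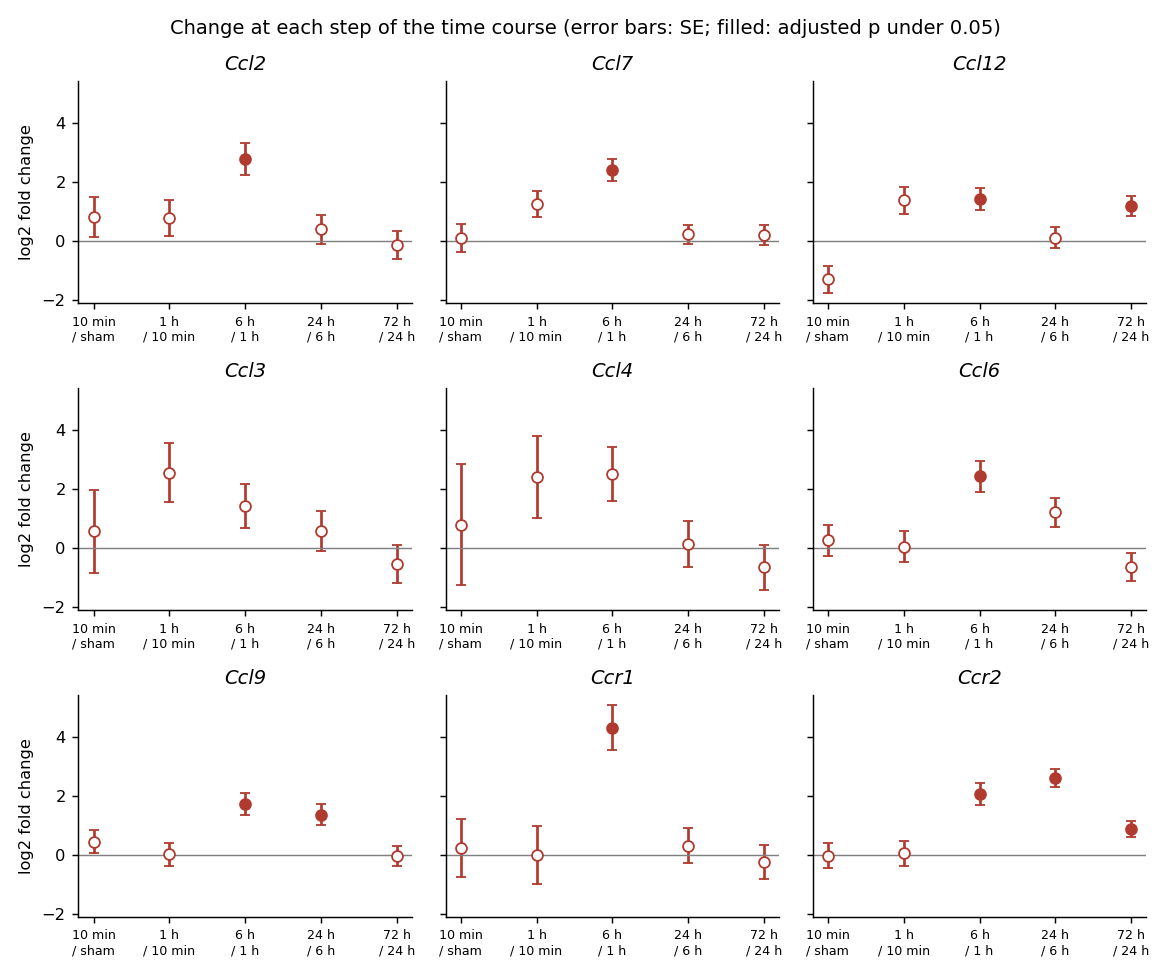
Log2 fold change of the 9 genes at each step between consecutive groups, with its standard error; filled points have an edgeR adjusted p under 0.05. The step from 1 to 6 h is called for 7 of the 9 genes and the 2 later steps for 2 genes each, with Ccr2 called at all 3.

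Markers of leukocytes differed between the same libraries. The summed level of 10 neutrophil markers was 5.42 to 7.68 CPM in sham, with Ly6g, Mmp8 and Il1r2 at 3 counts or fewer in each library. In replicates 1 to 3 it was 28.7, 11.8 and 8.60 CPM at 10 min and 988, 455 and 283 CPM at 6 h. It was 19.8 to 29.8 CPM at 1 h, 314, 112 and 1058 CPM at 24 h and 74.9 to 91.3 CPM at 72 h. The library highest in neutrophil markers was also the highest of its group for 6 of the 9 genes at 10 min and 4 at 1 h. At 6 h this held for 8 of the 9 genes, at 24 h and 72 h for all 9, and in sham for 3. The 10 markers of recruited monocytes summed to 50.9 to 52.9 CPM in sham, 68.4 to 162 at 6 h, 338, 200 and 1049 at 24 h and 648 to 690 at 72 h. They were highest in the same libraries as the neutrophil markers at 1, 6 and 24 h, but in replicate 3 at 10 min and at 72 h and in replicate 1 of sham. The 9 resident macrophage markers summed to 121 to 146 CPM in sham and 362 to 427 at 72 h. At 72 h 6 of them were called higher and 2 lower, against 34.2% and 32.2% of all genes. Of the recruited monocyte markers 10 were called higher at that time and of the neutrophil markers 8, with 0 lower. The 10 T and NK cell markers summed to 2.04 to 3.22 CPM in sham and 7.98 to 11.8 at 72 h. The match of the highest library was not particular to neutrophil markers. At 24 h replicate 3 was also highest in resident macrophage, B cell, mast cell and endothelial markers. Fibroblast, cardiomyocyte, and T and NK cell markers were highest in other 24 h libraries. At 72 h replicate 2 was highest in neutrophil markers only narrowly (91.3 CPM against 88.2 in replicate 3). It was also highest in fibroblast, endothelial and mast cell markers, but not in those of the other lists. The part of these cells in the chemokine levels was not tested.

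Levels of different genes were compared per kilobase of exon. The sum over the 7 ligands was 18.2 ± 0.953 CPM per kilobase in sham (SD, n = 3), 20.8 ± 7.01 at 10 min and 32.7 ± 0.850 at 1 h. It was 162 ± 60.5 at 6 h, 267 ± 177 at 24 h and 238 ± 58.5 at 72 h. The 1 h libraries, at 31.8 to 33.3, lay above all earlier ones, and the 3 late groups overlapped. In sham Ccl6 made up 38.3% ± 1.54 of this sum and Ccl2 10.9% ± 2.0. At 6 h Ccl2 (26.5% ± 3.80), Ccl6 (26.4% ± 9.17) and Ccl7 (23.7% ± 4.55) had shares that did not differ beyond their spread. At 24 h Ccl6 was again the largest share, 39.9% ± 5.31, with Ccl2 at 20.01% ± 1.95.

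The ligands were also grouped in 3 sets, which do not divide them by receptor, since Ccl3 binds Ccr1 as Ccl6 and Ccl9 do. The Ccr2 ligands Ccl2, Ccl7 and Ccl12 together made up 39.7 to 47.2% of the ligand sum in sham and 29.0 to 44.5% at 10 min. They made up 43.8 to 58.7% at 1 h, 48.4 to 70.8% at 6 h, 36.4 to 50.7% at 24 h and 46.5 to 60.2% at 72 h. Ccl6 and Ccl9 made up 51.0 to 57.0% in sham, 54.0 to 66.3% at 10 min and 30.8 to 44.3% at 1 h. Their share was 23.3 to 42.2% at 6 h, 47.4 to 59.7% at 24 h and 34.8 to 48.6% at 72 h. Ccl3 and Ccl4 had their largest share at 1 h, 10.5 to 11.9%, against 1.56 to 3.39% in sham and 4.97 to 5.27% at 72 h. The share of the Ccr2 ligands overlapped sham at 10 min and at 1, 24 and 72 h. That of Ccl6 and Ccl9 overlapped it at 10 min and 24 h alone, and no test was made of the shares. The ratio of Ccl7 to Ccl2 was 0.497 to 1.54 over the 18 libraries. It was 1.09 to 1.54 in sham, and lay below this at 6 h (0.782 to 0.980) and narrowly at 72 h (0.880 to 1.08). For 72 h against sham its exact two-sided permutation p was 0.1 (0.125 after adjustment over 5 ratio comparisons). The ratio of Ccl9 to Ccl6 was 0.201 to 0.499 over the 18 libraries, with 0.364 to 0.427 in sham and 0.444 to 0.475 at 72 h.

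**Figure D3:**
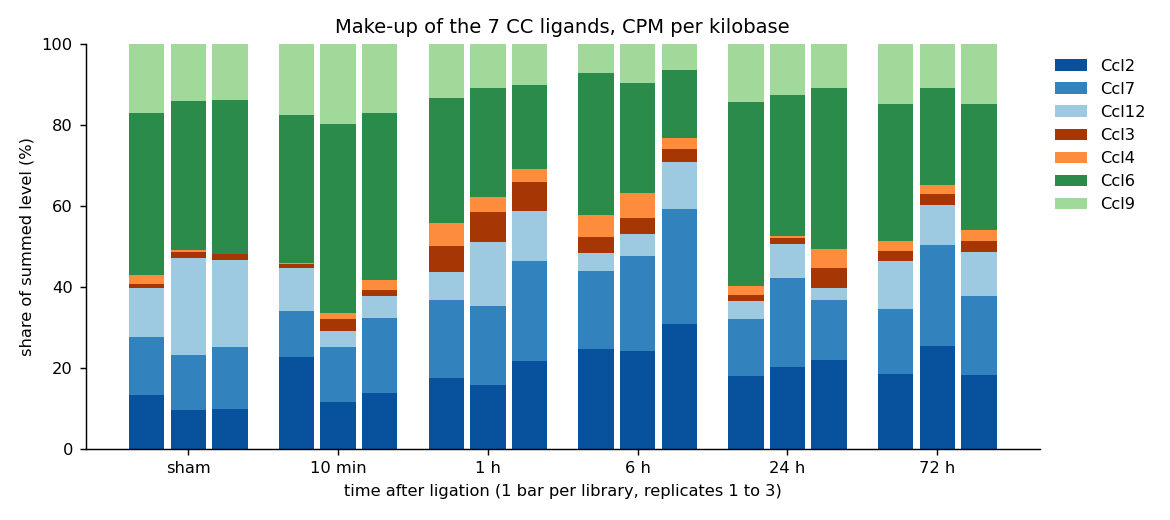
Share of each of the 7 ligands in their summed level (CPM per kilobase of exon), 1 bar per library in replicate order. Ccl6 and Ccl9 (greens) take 51.0 to 57.0% in sham and 23.3 to 42.2% at 6 h, Ccl2, Ccl7 and Ccl12 (blues) 48.4 to 70.8% at 6 h, and Ccl3 and Ccl4 (reds) 10.5 to 11.9% at 1 h.

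Ccr1 and Ccr2 changed order with time. Per kilobase, Ccr1 stood at 0.388 ± 0.158 and Ccr2 at 0.315 ± 0.10 CPM in sham (SD, n = 3), which did not differ beyond their spread. At 6 h Ccr1 was at 9.0 ± 7.02 and Ccr2 at 1.33 ± 0.396, at 24 h they were at 11.2 ± 10.0 and 8.07 ± 3.28, and at 72 h at 9.41 ± 1.71 and 14.8 ± 2.24. The ratio of Ccr2 to Ccr1 was 0.679 to 1.12 in sham, 0.0994 to 0.270 at 6 h, 0.522 to 1.67 at 24 h and 1.53 to 1.67 at 72 h. The 6 h libraries thus lay below and the 72 h libraries above all sham libraries. For both 6 h against sham and 72 h against 6 h the exact two-sided permutation p was 0.1, the smallest that 3 libraries against 3 allow (0.125 after adjustment over 5 ratio comparisons). The 5 comparisons were a selection of the ratios and pairs of groups, and the adjustment does not cover those left out.

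**Figure D4:**
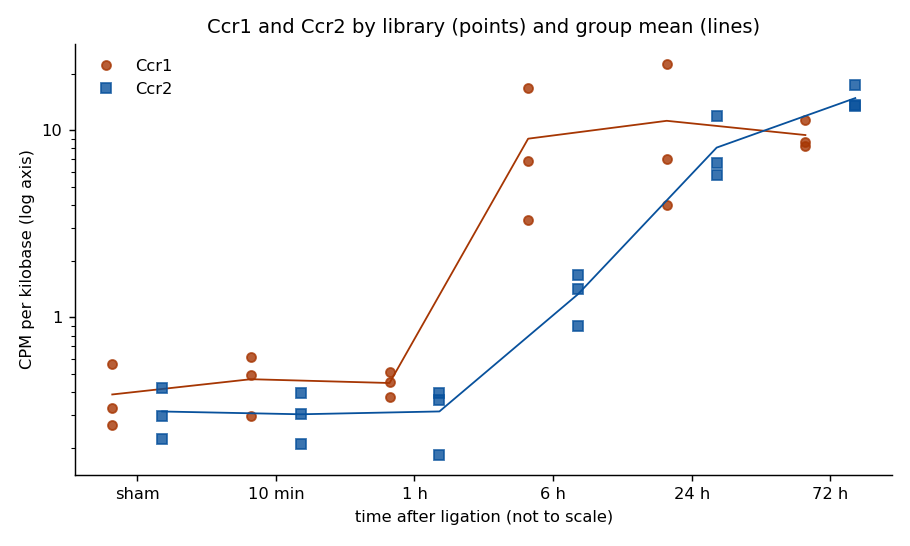
Level of Ccr1 and Ccr2 per kilobase of exon (CPM, log axis) in each library (points) with group means (lines) by time after ligation. Ccr1 has reached 9.0 CPM per kilobase at 6 h while Ccr2 is at 1.33, and at 72 h Ccr2 is the higher of the pair at 14.8.

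The 7 ligands lie in 2 clusters of chromosome 11 that also hold ligands outside the 9 genes. Ccl2, Ccl7, Ccl11, Ccl12 and Ccl8 lie within 81.2 kb (82035571 to 82116799). Ccl5, Ccl9, Ccl6, Ccl3 and Ccl4 lie within 138.9 kb (83525778 to 83664683). Neighbours did not follow 1 course. Ccl8, a ligand of Ccr2 and other CC receptors beside Ccl12, was at 0.128 ± 0.0679 CPM in sham and 0.404 ± 0.173 at 24 h, and at 72 h its libraries held 19.2, 12.7 and 17.4 CPM. Its log2 fold change against sham was 6.93 (SE 0.41, adjusted p = 1.24e-10) at 72 h, larger than that of any of the 9 genes, with 1 to 4 counts per sham library. Ccl11, the eosinophil attractant eotaxin between Ccl7 and Ccl12, was picked out after its values were seen. It was at 2.26 ± 0.390 CPM in sham, 7.75 ± 2.05 at 6 h (log2 fold change 1.78, SE 0.28, adjusted p = 1.73e-04) and 0.950 ± 0.0988 at 72 h (-1.24, SE 0.30, adjusted p = 0.00143). The 72 h call of Ccl11 was lost with library size scaling (-0.66, adjusted p = 0.0579) and with limma on log2(FPKM + 1) (-0.40, adjusted p = 0.0657). Ccl5, which draws monocytes and lymphocytes and lies at one end of the second cluster, was at 0.298 ± 0.244 CPM in sham and was called only at 72 h of the 5 times, at 1.31 ± 0.175 CPM (log2 fold change 2.14, SE 0.60, adjusted p = 0.00406).

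**Figure D5:**
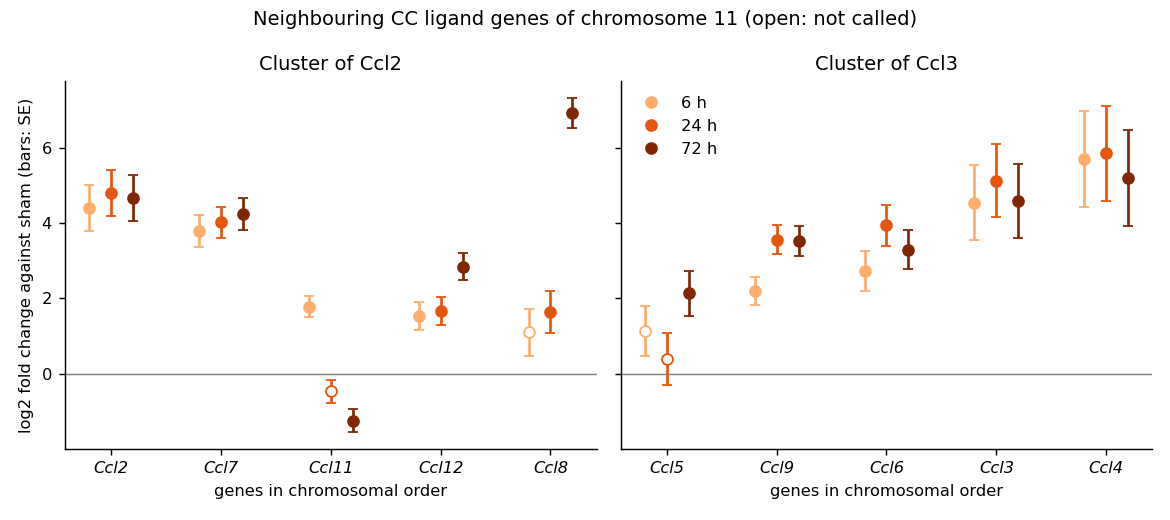
Log2 fold change against sham (with SE) at 6, 24 and 72 h for neighbouring CC ligand genes of chromosome 11, in chromosomal order; open points were not called. Ccl2 lies at 4.40 to 4.80 and Ccl7 at 3.79 to 4.24 at the 3 times, Ccl11 goes from 1.78 at 6 h to -1.24 at 72 h, and Ccl8 reaches 6.93 at 72 h.

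Of 13 other CC ligands listed, 9 had enough counts to be tested. Against sham, 3 were called higher and 0 lower at 6 h, 4 and 0 at 24 h, and 4 and 2 at 72 h. Of all genes, 16.3%, 23.7% and 34.2% were called higher at these times, and 12.2%, 20.2% and 32.2% lower. Ccl17 and Ccl22, ligands of Ccr4 made by dendritic cells and macrophages, were highest at 24 h. Ccl17 had 1 count over the 3 sham libraries and 21 to 58 counts per library at 24 h (1.75 ± 1.14 CPM, adjusted p = 1.91e-05). Ccl22 had 3 counts over the sham libraries and 34 to 75 per library at 24 h (2.24 ± 1.43 CPM, adjusted p = 2.66e-05). Ccl24, an eosinophil attractant, was at 2.28 ± 0.226 CPM in sham and at 5.48, 2.09 and 26.8 CPM in the 24 h libraries. Its 24 h call (log2 fold change 2.31, SE 0.64, adjusted p = 0.00955) was lost without replicate 3 (0.71, adjusted p = 0.0910).

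Of 12 other CC receptors and scavenging receptors, 7 were tested. Against sham, 3 were called higher and 2 lower at 6 h, 1 and 2 at 24 h, and 3 and 3 at 72 h. Of all genes, 16.3%, 23.7% and 34.2% were called higher at these times, and 12.2%, 20.2% and 32.2% lower. At 24 h and 72 h the counts of receptors lie near those shares. The called receptors included Ccr7, the receptor of dendritic cells and T cells for lymph node homing. Ccr7 was at 0.216 ± 0.0897 CPM in sham and 1.68 ± 0.224 at 72 h (log2 fold change 2.95, SE 0.54, adjusted p = 9.07e-05). Ackr1, a chemokine-binding receptor of venules and red cells that does not signal, was at 0.168 ± 0.130 CPM in sham and 0.995 ± 0.261 at 6 h (2.57, SE 0.70, adjusted p = 0.0110). Its 6 h call was lost without replicate 3 of sham (adjusted p = 0.0605). Ackr1 was not called at 24 h (adjusted p = 0.178), and was called at 72 h at 1.04 ± 0.0596 CPM (2.63, SE 0.68, adjusted p = 0.00229). Ccr10, a receptor of skin-homing T cells, was lower, at 1.04 ± 0.0864 CPM in sham and 0.331 ± 0.15 at 6 h (-1.62, SE 0.36, adjusted p = 0.00261). Ackr4, a receptor that takes up chemokines without signalling, was at 7.13, 5.45 and 9.51 CPM in sham and at 3.54, 3.40 and 0.412 CPM at 24 h (-1.55, SE 0.46, adjusted p = 0.0124). That call was lost without replicate 3 of sham (adjusted p = 0.0542) and with only those 2 groups fitted (0.0835). At 72 h Ackr4 was at 5.52 ± 1.75 CPM and not called against sham (adjusted p = 0.404). It was then called higher than at 24 h (1.13, SE 0.45, adjusted p = 0.0483).

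The genes most like each of the 9 were found among 12603 genes with a mean of at least 1 CPM, by scaling each gene's levels in the 18 libraries to the same total and taking the area shared with the chemokine or receptor. Predicted genes, named Gm with digits or ending in Rik, and genes without a symbol were left out. This overlap is a description, since all genes share the libraries and their spread. Ccl2 and Ccl7 were nearest to each other (92.1%), as were Ccl3 and Ccl4 (88.8%). Ccr1 was nearest to the haptoglobin gene Hp (93.9%) and to Inhba, a subunit of activin (93.5%), which was also near Ccl2 (91.1%). Ccr2 was nearest to the coagulation factor gene F7 (94.5%) and Galnt6 (93.8%). Ccl6 was nearest to Cd24a (91.2%) and Pdpn (90.6%), and Ccl9 to Pdpn (92.1%) and Mmp19 (90.7%). For Ccl12 the nearest were Ifi211 (91.8%) and Snai1 (90.8%), for Ccl7 after Ccl2 it was Ubash3b (88.2%), for Ccl3 after Ccl4 Rab11fip1 (87.2%), and for Ccl4 after Ccl3 the inflammasome gene Nlrp3 (88.4%). With profiles over the 6 group means in place of the 18 libraries, most ranks changed. Hp stayed at rank 1 for Ccr1 and F7 for Ccr2, and Cd24a was at rank 2 for Ccl6. Ccl7 was then at rank 7 for Ccl2, and Ccl4 at rank 6 for Ccl3. Mmp19 was at rank 26 for Ccl9 and Snai1 at rank 35 for Ccl12. Over the 18 libraries the median overlap with all candidates was 42.5% for Ccr2 and 64.0% for Ccl12. Among the 9 genes themselves the least alike were Ccl4 and Ccr2 (53.7%).

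Promoter sequences from RefSeq (GRCm38.p6) were matched for 6 of the 9 genes: Ccl12, Ccl3, Ccl6, Ccl9, Ccr1 and Ccr2. The 250 bases before the start were searched on both strands for the NF-kB consensus, for the AP-1 site TGANTCA, for the PU.1 core GAGGAA and for TATAAA. The NF-kB consensus was found in Ccl9 and Ccr1, against 7.25% of 32817 promoters of this length. The promoters of these 2 genes are shown because they held that match, marked in capitals. In Ccl9 it begins 35 bases before the start and reads as the consensus on the opposite strand, and in Ccr1 it begins 74 bases before the start.
Ccl9, chr11:83578637-83578886, minus strand: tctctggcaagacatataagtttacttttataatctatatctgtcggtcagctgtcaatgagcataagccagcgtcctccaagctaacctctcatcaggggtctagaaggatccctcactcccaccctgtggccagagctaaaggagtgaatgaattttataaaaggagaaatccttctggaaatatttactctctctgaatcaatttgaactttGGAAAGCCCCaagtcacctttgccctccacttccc
Ccr1, chr9:123968693-123968942, minus strand: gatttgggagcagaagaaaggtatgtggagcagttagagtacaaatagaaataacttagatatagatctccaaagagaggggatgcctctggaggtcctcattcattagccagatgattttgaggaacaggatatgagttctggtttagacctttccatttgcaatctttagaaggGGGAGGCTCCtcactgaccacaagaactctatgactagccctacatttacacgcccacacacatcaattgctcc
TGANTCA was found in Ccl9 (6.75% of all promoters), GAGGAA in Ccl12, Ccl3 and Ccr1 (23.3%), and TATAAA in Ccl12 and Ccl9 (12.4%). These are matches of letters, and binding was not measured here.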

How the data were processed

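Poly(A) RNA from the left ventricle was sequenced, with 3 mice in each of 6 groups taken from the labels. Per the submitters' processing notes, cutadapt 1.18, HISAT2 2.1.0 and featureCounts were used with mm10. The authors deposited raw read counts per Ensembl gene and FPKM (fragments per kilobase and per M mapped fragments) for the same libraries. The deposited FPKM columns of replicates 2 and 3 at 6 h held each other's counts, which lie in 1 group. Gene symbols and coordinates are from GENCODE M21 (GRCm38), matched for 30512 of 30583 IDs. No molecular identifiers or use of strand are described, and the limit of 3 counts covers counting error only.

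The deposited counts were fitted in R 4.3.3 with edgeR 4.0.16 (filterByExpr, which removed 14272 genes, TMM, glmQLFit robust, glmQLFTest, two-sided) with 1 mean per group over all 18 libraries and 10 contrasts. SE is the log2 fold change over the root of the F statistic. Alternatives were RLE and library size scaling, no filter, a minimum of 10 counts in 3 libraries, the 2 groups alone, DESeq2 1.42.0, limma 3.58.1 on log2(FPKM + 1) and log2(FPKM + 0.1), a replicate block and leaving out each library. The fit was tested on simulated data. Replicates of a group differed beyond counting noise (chi-square per gene at least 6.72), so none was merged. The 9 genes and all gene lists were chosen with earlier results of these data known. Genes outside the 9 were named by rule: of the other CC ligands and receptors called at 6, 24 or 72 h against sham, up to 4 of each with the largest change, Ccl5, and the 2 genes with the highest profile overlap per gene. Ccl11 was added after its values were seen. One listed receptor gene is not reported here.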

Additional observations from a re-analysis of the deposited data

How the results depend on the processing

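The count of called genes among the 9 was 9 against sham at 6, 24 and 72 h, 0 at 10 min and 9 in the test over the 6 groups under each alternative run. Against sham at 1 h it was 0 in the main fit, 4 with only the 2 groups compared, 2 with DESeq2 and 0 to 1 when single libraries were left out. For 1 h against 10 min it was 0, 3 with only the 2 groups, 1 with DESeq2 and 0 to 1 with a library left out. For 24 h against 6 h it was 2, 1 with only the 2 groups and 2 to 3 with a library left out. For 72 h against 24 h it was 2, and 1 to 4 with a library left out. For 6 h against 1 h it was 7, and 6 to 9 with a library left out. For 72 h against 6 h it was 3, and 5 with library size scaling and with limma on log2(FPKM + 1) or log2(FPKM + 0.1). With library size scaling the centre of all genes shifted, to a median log2 value of 0.20 for 24 h and 0.61 for 72 h against sham, and of 0.69 for 72 h against 6 h. Of 2428 recomputed log2 fold changes of the 9 genes, 2387 kept direction and side of the threshold, 33 became called, 6 were no longer called and 2 turned. Both turns were Ccl3 without replicate 3 of 24 h, at -1.38 for 24 h against 6 h and 1.41 for 72 h against 24 h, and over all left-out libraries the ranges were -1.38 to 1.09 and -1.05 to 1.41. The cause of the changes was not tested. Fits of only 2 groups took the spread from fewer libraries and also tested another set of genes.

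Replicate numbers did not pair the libraries: deviations of same-numbered libraries correlated by -0.256 to 0.252 (median 0.04, 45 pairs), and 6 of 18 libraries correlated best with their own number. With the replicate block the counts of called genes were those of the main fit, 9 at 6, 24 and 72 h and 0 at 10 min and 1 h. Ccl3 and Ccl4 had 0 to 5 counts per sham library, which limits the precision of their fold changes.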
